A study of Mus musculus with 6 samples.

Results

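Nuclear receptors are transcription factors, most of them switched by small fat-soluble molecules, and 46 mouse genes of this superfamily were examined in jejunum with an overactive SREBP2. The genes were chosen by symbol as a protein family and not by their values, though earlier results of these data were known. Of the 46, 44 had a row annotated with that symbol alone, 1 row each, among 19938 genes tested; Nr1h2 and Nr2e3 were not analysed here. The RNA was total RNA from mucosa scraped off the jejunum, the middle stretch of small intestine, taken at 8 to 10 weeks of age from mice of strain C57/BL, on chow and 12 h of light a day. ISR2 mice (3 arrays) are transgenic, with SREBP2, the factor that switches on cholesterol synthesis, overactive in the intestine, and their wild type littermates (3 arrays) lack the transgene. The sources used here give neither the promoter of the transgene nor the sex of the mice nor whether each array is a separate mouse, so the p-values cover only the spread among these 6 arrays. Scrapings mix cell types, and in such bulk RNA fewer cells of a type and less RNA per cell cannot be told apart. Values are the authors' log2 expression values from RMA, a method that equalises arrays, so a difference of 1 is 2-fold and is relative to the bulk of the array.

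A nuclear receptor carries a DNA-binding domain made of zinc fingers, which reads short elements of the type AGGTCA, and a ligand-binding domain, which changes shape when its ligand enters and then exchanges corepressors for coactivators. Receptors for thyroid hormone, retinoic acid, fatty acids, oxysterols, bile acids, vitamin D and xenobiotics pair with a retinoid X receptor (RXR), whereas steroid receptors pair with themselves. In the small intestine, HNF4 receptors maintain enterocyte genes, VDR drives calcium uptake, PXR and CAR drive drug metabolism, and liver X receptors (LXR) drive sterol export. LXRs are activated by oxysterols, which are made from cholesterol, and switch on Srebf1, the gene of the sister factor of SREBP2.

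The comparison asked whether any receptor gene differed in its own RNA level. None of the 44 passed an adjusted p of 0.05 in limma (0 rose and 0 fell), where 3.02% of all genes tested did (1.79% rose and 1.23% fell). At an unadjusted p under 0.05 there were 6 receptor genes, or 13.6%, beside 13.1% of all genes. Ppara alone was higher in ISR2 (all genes 4.73%), and Ppard, Nr1d1, Nr1h3, Nr2c1 and Nr6a1 were lower (all genes 8.4%). The ISR2 and wild type arrays did not overlap for 10 receptor genes, or 22.7%, beside 19.8% of all genes: 2 were higher in ISR2 (all genes 5.87%) and 8 lower (all genes 13.9%). These shares lay near the background. The log2 changes ran from -0.55 for Nr1d1 to 0.48 for Ppara, with a median of -0.11 beside -0.06 for all genes; 32 were below 0 (all genes 62.6%) and 12 above (all genes 37.4%). No receptor gene had a change of 1 or more in either direction, where 1.79% of all genes did. The unadjusted 95% interval of the change lay between -1 and 1 for each of the 44, as for 94.5% of all genes. Smaller differences could be missed with 3 arrays a group: the median standard error (SE) of a change was 0.145. A total of 14 receptor genes had a mean under 6, and no background measure shows these to be detected; the same holds for any other gene or group with values under 6, whose differences are of uncertain size.

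**Figure D1:**
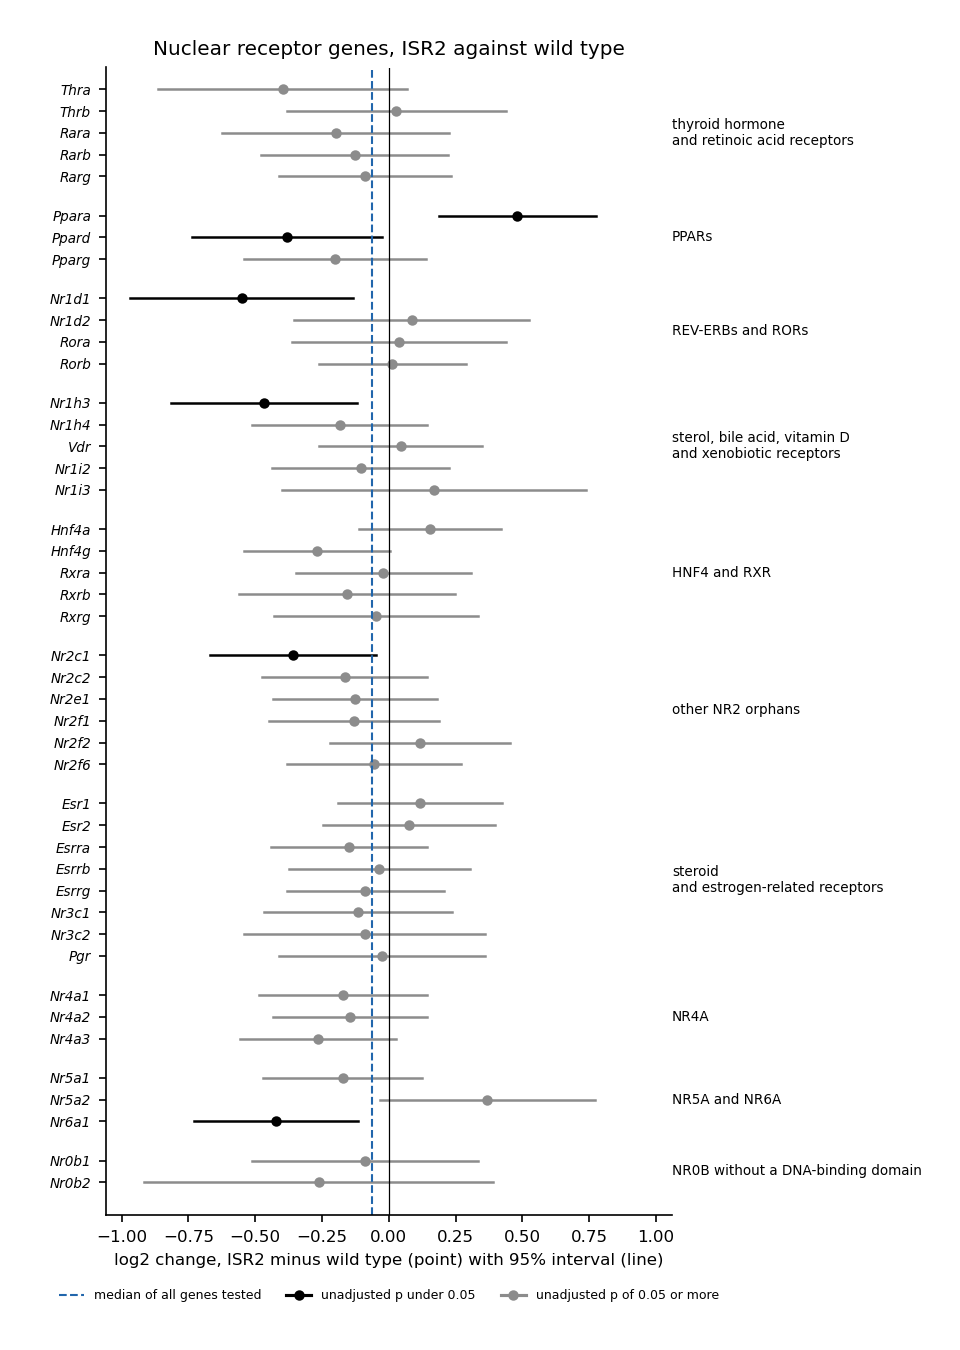
Log2 change of each of the 44 nuclear receptor genes, ISR2 minus wild type (x axis, point), with its unadjusted 95% interval (line), grouped by receptor class down the page; the dashed line is the median of all genes tested, -0.06. Black marks the 6 genes with an unadjusted p under 0.05, and each interval lies between -1 and 1.

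The 4 receptor genes with an adjusted p under 0.25 were Ppara, Nr6a1, Nr1h3 and Nr1d1, and their promoters are shown because these members came nearest to the threshold. Each run is RefSeq sequence from 250 bases before to 50 bases after a transcription start, in GRCm38.p6, 5′ to 3′ on the strand of the gene; of several starts, the one with most AGGTCA matches was taken, then the first listed. Capitals mark matches on either strand to 4 motifs, whose matches may overlap: AGGTCA (a nuclear receptor element), TCACNCCAC (an SREBP element), CACGTG (E-box) and GGGCGG (GC box).
Ppara, chr15:85735526-85735825, plus strand: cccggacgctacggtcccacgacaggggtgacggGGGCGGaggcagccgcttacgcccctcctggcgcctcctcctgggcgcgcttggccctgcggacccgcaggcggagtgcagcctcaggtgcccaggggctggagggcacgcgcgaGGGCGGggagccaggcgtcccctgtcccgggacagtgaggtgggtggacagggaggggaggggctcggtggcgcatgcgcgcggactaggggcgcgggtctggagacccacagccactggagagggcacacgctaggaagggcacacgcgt
Nr6a1, chr2:38784466-38784765, minus strand: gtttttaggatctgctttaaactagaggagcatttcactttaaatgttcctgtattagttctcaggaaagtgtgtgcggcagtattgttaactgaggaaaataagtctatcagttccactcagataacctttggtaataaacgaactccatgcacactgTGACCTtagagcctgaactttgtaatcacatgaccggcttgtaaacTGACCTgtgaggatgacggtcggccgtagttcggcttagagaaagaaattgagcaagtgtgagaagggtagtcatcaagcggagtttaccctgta
Nr1h3, chr2:91195067-91195366, minus strand: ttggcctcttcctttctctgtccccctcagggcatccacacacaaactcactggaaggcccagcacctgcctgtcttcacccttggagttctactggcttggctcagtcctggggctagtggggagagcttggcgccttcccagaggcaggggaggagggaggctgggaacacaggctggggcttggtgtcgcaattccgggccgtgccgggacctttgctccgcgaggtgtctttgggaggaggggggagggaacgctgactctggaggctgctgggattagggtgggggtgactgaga
Nr1d1, chr11:98775328-98775627, minus strand: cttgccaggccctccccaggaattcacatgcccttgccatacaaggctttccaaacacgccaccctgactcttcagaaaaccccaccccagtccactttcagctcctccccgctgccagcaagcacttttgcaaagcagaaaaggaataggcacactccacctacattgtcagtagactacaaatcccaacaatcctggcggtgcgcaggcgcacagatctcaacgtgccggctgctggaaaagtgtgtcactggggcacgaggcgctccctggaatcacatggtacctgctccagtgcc
The Ppara window was 74.7% G and C and held 2 GC boxes. The Nr6a1 window (1 of 2 listed starts) was 42.3% G and C and held AGGTCA 2 times. In the windows of Nr1h3 (1 of 2 listed starts) and Nr1d1 these letters were not found. Across the 61 windows of the 40 receptor genes in the table, AGGTCA occurred in 12 (19.7%, beside 16.3% of all 32851 windows) and GGGCGG in 28 (45.9%, beside 35.7%). CACGTG occurred in 6 (9.84%, beside 7.15%) and TCACNCCAC in 1 (1.64%, beside 1.24%), that of Nr0b1. Receptor windows had a median of 59.3% G and C, beside 52.7% for all windows. These are letter matches in a short window, not binding sites.

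The PPARs sense fatty acids. Ppara, the receptor that drives fatty acid oxidation, had log2 values of 9.01, 9.12 and 9.20 in ISR2, against 8.79, 8.55 and 8.55 in wild type. All 3 ISR2 values were higher, with a log2 change of 0.48 ± 0.13 (SE; 95% interval 0.19 to 0.77), but the gene did not pass (adjusted p = 0.111). Ppard, its broadly expressed relative, had 9.59, 9.17 and 9.69 in ISR2, against 9.95, 9.78 and 9.87 in wild type. Here all ISR2 values were lower, and the gene did not pass either (-0.38 ± 0.16, SE; adjusted p = 0.345). Without ISR2 replicate 2, its lowest array, the Ppard change was -0.22. Pparg, the receptor of adipocyte differentiation, overlapped between groups (-0.20 ± 0.15, SE; adjusted p = 0.656).

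Among known PPAR targets, 2 of 18 measured genes rose and 2 fell, with a median log2 change of 0.10. Ehhadh (2.31-fold) and Acadl (2.02-fold), enzymes of peroxisomal and mitochondrial fatty acid oxidation, rose. Vnn1, a pantetheinase gene, fell by 2.86 (log2; SE 0.17), and Angptl4, which encodes an inhibitor of lipoprotein lipase, fell by 1.07 (SE 0.15). Several other targets had groups that did not overlap yet did not pass. Cyp4a10, a fatty acid hydroxylase gene, had 6.63, 7.07 and 7.58 in ISR2, against 6.52, 6.13 and 6.03 in wild type (0.87 ± 0.24, SE; adjusted p = 0.113). Its relative Cyp4a31 was at 0.93 ± 0.26 (SE, adjusted p = 0.132). Acot1, an acyl-CoA thioesterase gene, was at 0.84 ± 0.25 (SE, adjusted p = 0.156). The wild type values of both genes were all under 6. In ISR2, Cyp4a31 had 5.10, 5.21 and 6.11, and Acot1 had 5.91, 5.84 and 6.73. Values under 6 are not shown to be detected, so the size of both differences is uncertain. Pdk4, whose kinase restrains pyruvate oxidation, lay on the other side, with 6.29, 7.83 and 7.14 in ISR2, against 8.47, 8.64 and 8.11 in wild type (-1.32 ± 0.33, SE; adjusted p = 0.0853). In all, 10 of the 18 targets were above 0 and 8 below.

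Nr1h3, which encodes LXR alpha, had 8.16, 8.40 and 8.22 in ISR2, against 9.01, 8.54 and 8.63 in wild type. The groups did not overlap, with a gap of 0.14 between the nearest arrays, and the change of -0.47 ± 0.15 (SE; 95% interval -0.82 to -0.12) did not pass (adjusted p = 0.211). With array weights it passed (adjusted p = 0.0432), a fit in which 6.36% of all genes passed and in which ISR2 replicate 1 had a weight of 4.06 and the other arrays 0.40 to 1.16. Nr1h2, the other LXR gene, was not analysed. Of 9 LXR targets measured, 3 rose and 1 fell. Pltp, a phospholipid transfer protein gene, rose 6.74-fold, Srebf1 3.18-fold and Lpcat3, a phospholipid remodelling enzyme gene, 1.76-fold. Abca1, which encodes a cholesterol exporter, fell by 1.03 on the log2 scale (SE 0.18), and without ISR2 replicate 3, wild type replicate 1 or wild type replicate 2 it did not pass (adjusted p up to 0.0665). Srebf1 is also a known SREBP target.

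Genes that make or clear oxysterols and active vitamin D held 1 call among 7 measured. Cyp2r1, a vitamin D 25-hydroxylase gene, had 6.38, 6.87 and 6.26 in ISR2, against 5.21, 5.16 and 4.95 in wild type. The nearest arrays of the groups were 1.05 apart, and the gene rose (log2 change 1.40 ± 0.18, SE; adjusted p = 0.00249), as it did in each of the 15 alternative fits that kept it. Its wild type values were all under 6 and not shown to be detected, so no fold is given. Cyp27a1, the sterol 27-hydroxylase gene, had 8.57, 9.20 and 8.56 in ISR2, against 9.43, 9.68 and 9.18 in wild type, where ISR2 replicate 2 lay within the wild type range (-0.65 ± 0.20, SE; adjusted p = 0.176). Ch25h, the cholesterol 25-hydroxylase gene, was at -0.08 ± 0.20 (SE).

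Vdr, the vitamin D receptor gene, had 11.19, 11.14 and 11.36 in ISR2, against 11.28, 11.005 and 11.27 in wild type. These values overlapped, and the 95% interval of the difference was -0.26 to 0.35. None of its 5 measured targets passed, though Trpv5 and Trpv6 had means of 5.15 and 5.07, not shown to be detected. The smallest p was that of S100g, which encodes an intracellular calcium carrier (-0.40 ± 0.23, SE, adjusted p = 0.525). Nr1h4, which encodes the bile acid receptor FXR, overlapped (-0.18 ± 0.15, SE; adjusted p = 0.677). Of 4 FXR targets, each below 0 (all genes 62.6%), Fgf15 and Fabp6 had means of 5.67 and 4.87, not shown to be detected. Slc51a, a subunit gene of the basolateral bile acid transporter, fell by 0.67 (log2, SE 0.13). Among the fits that left out 1 array it passed only without wild type replicate 2 (adjusted p up to 0.152). Slc51b, the gene of the other subunit, was at -0.60 ± 0.26 (SE; adjusted p = 0.362).

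Nr1i2 encodes PXR and Nr1i3 encodes CAR, the xenobiotic receptors. Nr1i2 had 9.89, 10.04 and 9.78 in ISR2, against 10.12, 10.13 and 9.77 in wild type, and the groups overlapped (-0.11 ± 0.15, SE). Nr1i3 varied more within each group, with 9.04, 9.42 and 8.60 in ISR2, against 9.17, 9.01 and 8.37 in wild type. Its lowest array in each group was replicate 3. None of 9 PXR and CAR targets passed. Cyp2b10, a cytochrome P450 gene that CAR induces in mouse liver, had 10.01, 11.19 and 10.69 in ISR2, against 11.85, 11.74 and 11.70 in wild type. The groups did not overlap (-1.13 ± 0.26, SE; adjusted p = 0.052), and it passed in 7 of 16 alternative fits. Abcc2, which encodes an apical exporter of conjugates, lay on the other side (0.54 ± 0.15, SE; adjusted p = 0.131).

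Hnf4a and Hnf4g encode the HNF4 receptors of enterocytes, and both varied little within groups. Hnf4a had 11.70, 11.57 and 11.64 in ISR2, against 11.55, 11.43 and 11.46 in wild type, a difference of 0.15 ± 0.12 (SE; 95% interval -0.11 to 0.42), with a gap of 0.02 between the nearest arrays. Hnf4g had 10.94, 11.08 and 11.18 in ISR2, against 11.37, 11.31 and 11.33 in wild type, lower in ISR2 without overlap (-0.27 ± 0.12, SE; adjusted p = 0.394). Of 9 known HNF4 targets, 8 were below 0 (all genes 62.6%), 2 fell and none rose. Fabp2, Mttp and Creb3l3, among those below 0, overlapped between groups, at -0.03, -0.09 and -0.10. Pck1, the phosphoenolpyruvate carboxykinase gene, fell by 2.70 (log2; SE 0.44), a call lost without ISR2 replicate 1 or wild type replicate 1 (adjusted p up to 0.0619). Apoc3, an apolipoprotein gene, fell by 1.72 (SE 0.25), and Apoa1, that of the main HDL protein, was at -0.51 ± 0.14 (SE; adjusted p = 0.108). All 9 enterocyte markers were measured and averaged 11.88 to 12.08 on the ISR2 arrays and 12.37 to 12.40 on the wild type arrays, and 2 of them fell; Fabp2 and Apoa4 are in both lists. The part of enterocyte content in the HNF4 target values was not tested. The partner genes Rxra, Rxrb and Rxrg overlapped between groups, at -0.02 ± 0.14, -0.16 ± 0.18 and -0.05 ± 0.17 (SE).

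**Figure D2:**
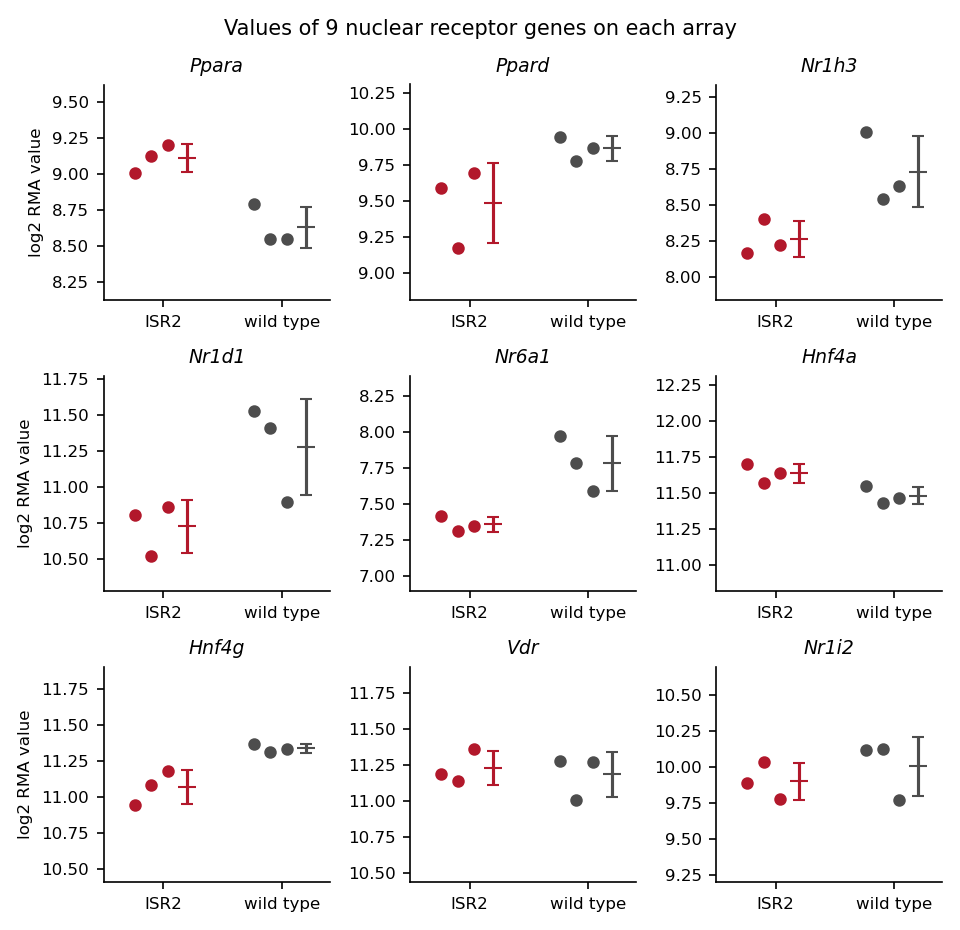
Log2 RMA value (y axis) of 9 nuclear receptor genes on each of the 3 ISR2 arrays (red, left) and 3 wild type arrays (grey, right); points are replicates 1 to 3 from left to right, and the bar beside them is the mean ± SD. Each panel spans the same width of log2 units; Ppara and Hnf4a lie higher in ISR2 without overlap, Ppard, Nr1h3, Nr1d1, Nr6a1 and Hnf4g lie lower without overlap, and Vdr and Nr1i2 overlap.

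REV-ERB and ROR receptors compete for the same elements in circadian genes: RORs activate and REV-ERBs repress. Nr1d1, which encodes REV-ERB alpha, had 10.80, 10.52 and 10.86 in ISR2, against 11.53, 11.40 and 10.90 in wild type. Wild type replicate 3 lay 0.04 above the highest ISR2 array, and the change of -0.55 ± 0.18 (SE; 95% interval -0.97 to -0.13) did not pass (adjusted p = 0.22). Nr1d2, which encodes REV-ERB beta, overlapped, with 8.97, 9.02 and 8.59 in ISR2, against 8.93, 9.01 and 8.39 in wild type. Rora and Rorb also overlapped (0.04 ± 0.18 and 0.01 ± 0.12, SE), with means of 5.73 and 4.77.

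None of 10 clock genes measured passed. The groups did not overlap for 6 of the 10, a larger share than the 19.8% of all genes. The list was chosen with earlier results of these data known, so the share is a description only. Arntl, the BMAL1 gene and a REV-ERB target, had 6.33, 5.73 and 6.61 in ISR2, against 7.01, 6.93 and 8.01 in wild type (-1.10 ± 0.31, SE; adjusted p = 0.131). Its lowest value was on ISR2 replicate 2 and its highest on wild type replicate 3. Nfil3, a REV-ERB target that encodes a repressor, was also lower in each ISR2 array (-0.74 ± 0.24, SE; adjusted p = 0.204). Per3, a period gene, had 8.08, 8.28 and 8.12 in ISR2, against 7.15, 7.46 and 6.24 in wild type (1.21 ± 0.27, SE; adjusted p = 0.0504), and passed in 9 of 16 alternative fits. Ciart, which encodes a clock repressor, had 8.58, 8.85 and 8.18 in ISR2, against 6.84, 7.70 and 5.63 in wild type (1.82 ± 0.43, SE; adjusted p = 0.0683), and passed in 4 of 16. Wild type replicate 3 stood apart, with the highest Arntl and the lowest Per3, Ciart and Dbp values of the 6 arrays. The hour of tissue collection is not known here, and its part in these values was not tested.

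**Figure D3:**
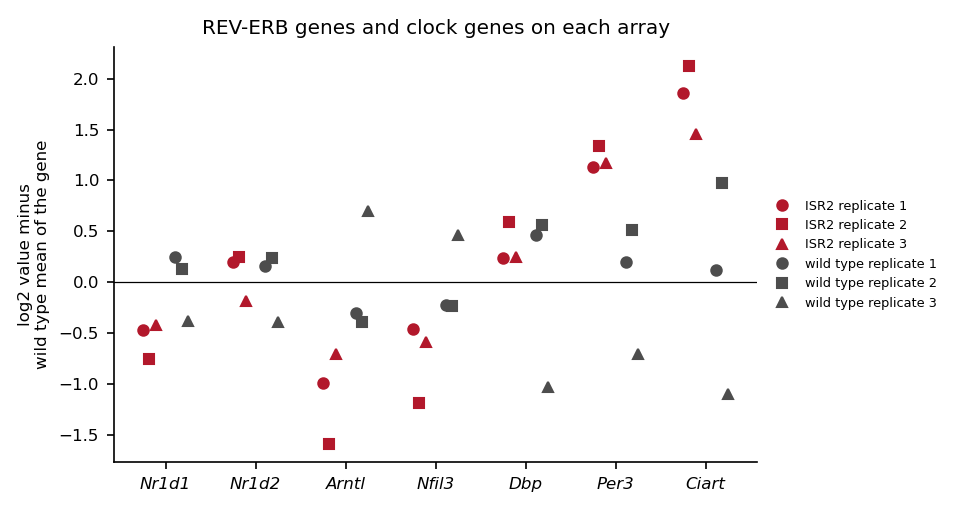
Log2 value of the REV-ERB genes Nr1d1 and Nr1d2 and of 5 clock genes on each array, as the difference from the wild type mean of that gene (y axis), with ISR2 arrays (red) left of wild type arrays (grey) and the replicate shown by the symbol. Per3 and Ciart lie higher in all 3 ISR2 arrays, Nr1d1, Arntl and Nfil3 lie lower, and wild type replicate 3 (grey triangle) stands apart from the other wild type arrays.

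No receptor gene for thyroid hormone or retinoic acid passed. Thra, the thyroid receptor alpha gene, had 9.18, 8.77 and 9.59 in ISR2, against 9.67, 9.37 and 9.70 in wild type. The groups overlapped and ISR2 replicate 2 was lowest (-0.40 ± 0.21, SE; adjusted p = 0.475). The Thra change was -0.19 without that array and -0.60 without ISR2 replicate 3. Thrb was at 0.03 ± 0.18 (SE), and Rara, Rarb and Rarg were at -0.20, -0.13 and -0.09. Dio1, which encodes a deiodinase that converts and clears thyroid hormone and is itself a classical thyroid hormone target, had 7.43, 8.04 and 7.61 in ISR2, against 9.44, 9.20 and 9.23 in wild type. The nearest arrays were 1.16 apart, and it fell by 1.60 on the log2 scale, 3.03-fold lower (SE 0.17; adjusted p = 0.00101), and passed in 16 of 16 alternative fits. Among the 5 thyroid hormone targets measured, Dio1 fell and Me1, the malic enzyme gene, rose 9.30-fold; Me1 is also an SREBP target. Klf9, which encodes a hormone-induced factor, and Hr, which encodes a corepressor, did not pass (0.26 ± 0.15 and -0.30 ± 0.17, SE).

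In the supply of retinoic acid, 2 of 9 measured genes rose and none fell. Rdh11, a retinol dehydrogenase gene and known SREBP target, rose 7.52-fold. Aldh1a1, whose enzyme oxidises retinal to retinoic acid, had 12.03, 12.32 and 12.38 in ISR2, against 11.72, 11.45 and 11.39 in wild type, and rose 1.65-fold (0.72 ± 0.15, SE; adjusted p = 0.0361). It did not pass in any of the 6 fits that left out 1 array (adjusted p up to 0.14). Rdh10, the retinol dehydrogenase gene of retinoic acid synthesis in the embryo, was higher without overlap (0.54 ± 0.12, SE; adjusted p = 0.0532) and passed in 7 of 16 alternative fits. Bco1, whose enzyme splits beta-carotene, was uneven in wild type: it had 5.56, 5.70 and 5.42 in ISR2, against 7.06, 7.88 and 5.88 in wild type (-1.38 ± 0.41, SE; adjusted p = 0.149). None of 7 retinoic acid targets passed, and the smallest p was that of Isx, which encodes an intestinal repressor of Bco1 (0.42 ± 0.17, SE; adjusted p = 0.328).

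**Figure D4:**
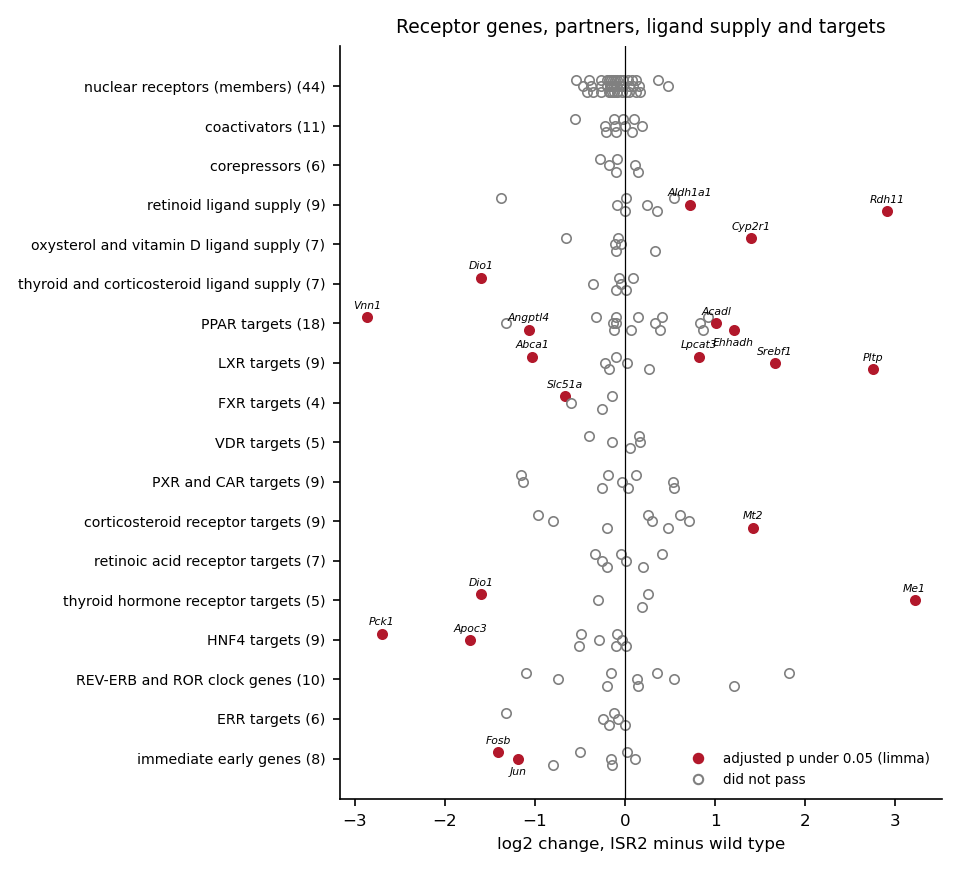
Log2 change, ISR2 minus wild type (x axis), of the 44 nuclear receptor genes and of the genes in 17 lists of coregulators, ligand supply, targets and immediate early genes (number measured in brackets); filled red points passed an adjusted p of 0.05 in limma and are named, open points did not. No receptor or coregulator point is filled. The PPAR, LXR and thyroid hormone receptor target rows hold filled points on both sides of 0. The VDR, PXR and CAR, retinoic acid receptor, clock and ERR rows hold none. Each other row holds filled points on a single side.

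Steroid and estrogen-related receptor genes lay close to 0, from -0.15 for Esrra to 0.12 for Esr1. Nr3c1, the glucocorticoid receptor gene, had 8.94, 8.69 and 9.05 in ISR2, against 9.07, 8.77 and 9.18 in wild type, which overlapped (-0.11 ± 0.16, SE). Nr3c2, the mineralocorticoid receptor gene, had 8.72, 8.73 and 8.82 in ISR2, against 9.10, 9.09 and 8.35 in wild type, and wild type replicate 3 was lowest. Of 9 corticosteroid receptor targets, 1 rose: Mt2, a metallothionein gene that zinc also induces, had 12.30, 12.54 and 12.43 in ISR2, against 11.51, 10.60 and 10.89 in wild type and rose 2.68-fold (1.42 ± 0.22, SE; adjusted p = 0.00688). Tsc22d3, the glucocorticoid-induced leucine zipper gene, was higher in each ISR2 array and did not pass (0.61 ± 0.16, SE; adjusted p = 0.11). Sgk1, whose kinase gene both corticosteroid receptors induce, overlapped and lay on the other side (-0.96 ± 0.41, SE, adjusted p = 0.362). Dusp1, also in the list of immediate early genes, was lower in each ISR2 array and did not pass (-0.80 ± 0.23, SE, adjusted p = 0.133). Of the 9 targets, 6 were above 0 and 3 below. Esrra, which encodes ERR alpha, a factor of mitochondrial genes, was lower without overlap by a gap of under 0.01 (-0.15 ± 0.13, SE), and none of 6 ERR targets passed. Esr1, Esr2, Esrrb and Pgr had means of 5.96, 4.98, 5.27 and 5.09, not shown to be above background, and Esrrg was at -0.09 ± 0.13 (SE).

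The NR4A receptors are immediate early factors that act without a known hormone ligand. Nr4a1 and Nr4a2 overlapped between groups (-0.17 ± 0.14 and -0.15 ± 0.13, SE). Nr4a3 had 4.93, 5.04 and 5.13 in ISR2, against 5.15, 5.41 and 5.34 in wild type, lower in ISR2 without overlap, and did not pass (-0.26 ± 0.13, SE; adjusted p = 0.444). Of 8 other immediate early genes 2 fell, both of which encode AP-1 subunits. Fosb had 5.997, 5.58 and 5.49 in ISR2, against 7.18, 6.84 and 7.28 in wild type (log2 change -1.41 ± 0.18, SE; adjusted p = 0.00245); its ISR2 values were all under 6 and not shown to be detected, so no fold is given. Jun had 8.04, 8.48 and 7.81 in ISR2, against 9.33, 9.28 and 9.30 in wild type, 2.28-fold lower (adjusted p = 0.00539). Both passed in 16 of 16 alternative fits, whereas Fos and Egr1 did not pass (-0.50 ± 0.27 and 0.02 ± 0.15, SE). Of 8 markers of T cells and intraepithelial lymphocytes, 5 fell, and their mean was 6.75 to 7.34 on the ISR2 arrays and 7.79 to 8.30 on the wild type arrays. The part of these cells in the NR4A and AP-1 values was not tested.

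Among the remaining orphans, Nr6a1, the germ cell nuclear factor gene, had 7.41, 7.31 and 7.34 in ISR2, against 7.97, 7.78 and 7.58 in wild type. The ISR2 values lay close together and below each wild type value (-0.42 ± 0.14, SE; 95% interval -0.73 to -0.12; adjusted p = 0.194). Nr2c1, the TR2 receptor gene, was lower without overlap, with 7.28, 7.26 and 7.58 in ISR2, against 7.82, 7.62 and 7.76 in wild type (-0.36 ± 0.14, SE; adjusted p = 0.295). Its relative Nr2c2 overlapped (-0.17 ± 0.14, SE). Nr5a2, which encodes LRH-1, a factor of crypt renewal and local steroid synthesis, had 8.63, 8.32 and 9.02 in ISR2, against 8.29, 8.21 and 8.36 in wild type. ISR2 replicate 2 lay within the wild type range, and the other ISR2 arrays above it (0.37 ± 0.18, SE; adjusted p = 0.438). Without ISR2 replicate 3 the Nr5a2 change was 0.19. Nr2e1, Nr2f1, Nr2f2, Nr2f6 and Nr5a1 overlapped between groups, at -0.13, -0.13, 0.12, -0.06 and -0.17. Nr0b1 and Nr0b2 encode receptors that lack the DNA-binding domain and act as corepressors. Nr0b2, the SHP gene and an FXR target, had 4.58, 5.24 and 5.27 in ISR2, against 5.01, 4.91 and 5.95 in wild type (-0.26 ± 0.29, SE), with wild type replicate 3 the highest, and Nr0b1 was at -0.09 ± 0.19 (SE).

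None of 17 coregulator genes measured passed (11 coactivators and 6 corepressors), and their changes ran from -0.55 to 0.19. At the low end was Ppargc1a, which encodes PGC-1 alpha, a coactivator of PPAR and ERR receptors, with 8.99, 9.21 and 9.28 in ISR2, against 9.91, 9.94 and 9.29 in wild type (-0.55 ± 0.19, SE; adjusted p = 0.23). Wild type replicate 3 lay 0.01 above the highest ISR2 array, and without it the gene passed. The corepressor gene with the smallest p was Nrip1 (-0.28 ± 0.14, SE; adjusted p = 0.45). In the lists around the receptors, 4 of 23 ligand supply genes (17.4%) and 14 of 87 target and clock genes (16.1%, 7 rose and 7 fell) passed, beside the 3.02% of all genes. Some of these genes are SREBP targets. The lists were chosen with earlier results of these data known, so the shares are descriptions only. Nr1h5, a further receptor gene, was at -0.07 ± 0.15 (SE).

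Across the arrays, the median of the 44 receptor genes was 7.35, 7.24 and 7.56 in ISR2, against 7.86, 7.52 and 7.66 in wild type. Over all genes tested, the array medians were 6.31 to 6.47. The median of the 44 changes was -0.11, beside -0.06 for all genes. ISR2 replicate 2 held the lowest value for 14 of the 44 and wild type replicate 1 the highest for 14. The same counts were not made over all genes. The SD between arrays of a group had a median of 0.181 in ISR2 and 0.15 in wild type for the receptor genes, beside 0.178 and 0.153 for all genes. Of 12 smooth muscle and stroma markers none passed. Their mean was 7.78, 8.61 and 7.64 on the ISR2 arrays, against 7.07, 9.15 and 7.55 on the wild type arrays. It was highest in replicate 2 of each group. Marker lists of B and plasma cells, enteric neurons and glia, endothelium, enteroendocrine cells and pancreatic acinar cells (4 measured genes each) and of adipocytes (3) held no calls, and 1 of 6 myeloid markers rose. The part of these cells in the receptor values was not tested.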

How the data were processed

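Jejunal mucosal RNA of 3 ISR2 and 3 wild type samples was labelled with biotin and hybridised to 1-colour Affymetrix arrays, per the labels' protocols. The deposited log2 values were computed by RMA, which corrects background, equalises arrays and summarises probes; RMA is named in the submitters' processing notes, without version or settings. They ran from 1.44 to 14.8, with array medians of 6.04 to 6.19. No detection call was used, and the number of arrays limits the precision.

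Of 35556 rows, 21789 carried 1 gene symbol in the platform annotation; the row with the highest mean was kept for each of 19938 genes. limma 3.58.1 in R 4.3.3 (lmFit, eBayes) compared ISR2 with wild type without covariates, with two-sided p-values adjusted by Benjamini-Hochberg over all genes; it was tested on simulated data. Groups came from sample titles and descriptions. Array values were given for receptor genes with an adjusted p under 0.25, a change of at least 0.5 or one of the 6 highest means, and for others picked after their values were seen. From each list, called genes or those with the smallest p were named, and some others were added after their values were seen. Members and lists were chosen with earlier results of these data known. Promoters are from RefSeq (40 of 44 matched by symbol), searched with Python 3.11.15.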

Additional observations from a re-analysis of the deposited data

How the results depend on the processing

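No receptor gene rose under any of the 17 alternatives, and none fell under 16 of them: moderation with an intensity trend or made robust, median centring, quantile normalization, the lowest 40% of genes left out, all rows tested, probe set means, a replicate block, each array left out, wild type replicate 3 and ISR2 replicate 2 left out together, and a threshold of 0.10. With array weights 1 receptor gene, Nr1h3, fell. Over all genes 602 passed, 1268 with array weights and 335 to 589 without 1 array, lowest without ISR2 replicate 1. Arrays of the same number had correlations of deviations of -0.02, 0.32 and 0.54 for numbers 1, 2 and 3. ISR2 replicates 2 and 3 correlated best with their own number, and ISR2 replicate 1 did not. With 3 arrays a group, this cannot settle whether the numbers pair the arrays. With the replicate block 778 genes passed and 0 receptor genes. The median change of the receptor genes was -0.13 to -0.07 without 1 array and -0.03 after median centring, where that of all genes was 0.02. The cause was not tested. The sign turned in at least 1 alternative for 20 receptor genes, none of them called, and in none for 24, among them Ppara, Ppard, Nr1d1, Nr1h3 and Nr6a1. Calls of Abca1, Aldh1a1, Pck1 and Slc51a were also lost with all rows tested, and those of Abca1, Aldh1a1 and Slc51a with 2 arrays left out; that of Slc51a was lost after median centring. Without a background measure, little can be read from the 14 receptor genes with means under 6.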
